A study of Mus musculus with 10 samples.

Results

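Membrane repair in muscle was followed through 10 genes, dysferlin (Dysf), Trim72 and the annexins Anxa1, Anxa2, Anxa3, Anxa4, Anxa5, Anxa6, Anxa7 and Anxa11, out of 43629 genes counted. They were found by mapping the Ensembl identifiers of the count files to mouse symbols. Dysf, Anxa3 and Anxa11 were picked for their differences in these same libraries, so their values are given as a description and carry no test. The other 7 genes were chosen by name and were tested, though all members were chosen with earlier results of these data known. All 10 were high enough in counts to enter every comparison.

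RNA was sequenced from skeletal muscle of male C57BL/6 mice aged 6 weeks that had been on a high-fat diet for 2 weeks, a diet and age shared by all groups. The groups were IMP2 knockout (KO) muscle, labelled null for IMP2, as total RNA (n = 3) and as RNA pulled down with an IMP2 antibody (KO IP, n = 2), and wild-type (WT) muscle as total RNA (n = 3) and IP (n = 2). IMP2 is the RNA-binding protein encoded by Igf2bp2, and the KO IP shows what the home-made antibody recovers from muscle that carries the null label. The series description speaks of a muscle-specific knockout, which would leave IMP2 in other cell types of the tissue, while the promoter that drives the deletion and the deleted part are not stated in the labels. Whether any library stands for an animal of its own is not stated in the labels, and the p-values below describe only the spread among these libraries, which may be technical.

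When the surface membrane of a muscle fibre tears, calcium flows in and vesicles gather and fuse to form a patch over the wound. Dysferlin is a calcium-sensing membrane protein needed for this fusion, and its loss causes a muscular dystrophy. TRIM72 (mitsugumin 53) carries vesicles to the tear, and annexins bind negatively charged phospholipids in the presence of calcium and assemble as a cap at the site of repair.

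The total of counts in genes ran from 917462 to 4037480 in the IP and from 9691580 to 14809788 in total RNA, with KO IP library 1 the shallowest. Igf2bp2 was low throughout, with 21, 19 and 21 counts in KO total RNA, against 35, 37 and 48 counts in WT total RNA. Levels are given as CPM, counts scaled to a common library size with TMM factors over all 10 libraries. In these CPM the ranges of Igf2bp2 overlapped narrowly between KO and WT total RNA. With library size as the only scaling, every KO total RNA library lay below every WT total RNA library. The log2 difference of KO over WT was -0.36 ± 0.28 (SE), with an adjusted p of 0.897 (edgeR). Counts over the whole gene cannot check a deletion whose extent is unknown. The 5 markers of muscle fibres (Ckm, Acta1, Des, Ttn and Neb) summed to 85201 to 118527 CPM in KO total RNA and to 46624 to 88883 CPM in WT total RNA, so the tissue label was met in every library. KO total RNA library 1 also carried 2362 CPM of pancreatic islet transcripts, against 1.00 to 2.23 CPM in the other 5 total RNA libraries. All 4 IP libraries held islet transcripts too, at 366.6 and 139.7 CPM in KO IP and 42.0 and 336.7 CPM in WT IP, and the part of such RNA in the comparisons of IP with total RNA was not tested. WT total RNA library 2 carried 371 CPM of adipocyte transcripts, and WT total RNA library 3 had the lowest fibre markers.

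In total RNA, Dysf was higher in KO muscle than in WT muscle, Trim72 and Anxa6 were slightly higher and Anxa4 was lower, while no gene of the 7 tested passed the test. Dysf (ENSMUSG00000033788, chr6:84008590-84211060, plus strand, GRCm38) had 227.4, 208.4 and 197.4 CPM in KO libraries 1 to 3, against 123.8, 147.0 and 117.7 CPM in WT libraries 1 to 3. Every KO library lay above every WT library. The log2 difference of KO over WT was 0.70 ± 0.15 (SE, n = 3 and 3), a fold of 1.62, and 243 of 13169 genes had a larger one. In bulk tissue, fewer cells of a type and less RNA per cell cannot be told apart. Set against the summed muscle fibre markers of its own library, Dysf came to 2.19, 2.45 and 1.67 CPM per 1000 CPM of fibre markers in KO libraries, against 1.48, 1.65 and 2.53 in WT libraries. On that scale the groups overlapped, with WT library 3 the highest of all 6, and the part of fibre content in the Dysf difference was not tested.

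Trim72 (ENSMUSG00000042828, chr7:128003949-128011033, plus strand), which encodes the muscle-restricted TRIM protein that nucleates the repair patch, had 339.5, 318.2 and 343.2 CPM in KO total RNA, against 295.1, 313.8 and 178.6 CPM in WT total RNA. The KO libraries all lay above the WT libraries, and the gap to the next WT library was small because only WT library 3 was far lower. The log2 difference was 0.34 ± 0.21 (SE; adjusted p = 0.897, edgeR quasi-likelihood test over 13169 genes). Without WT library 3 it was 0.14. Per 1000 CPM of fibre markers, Trim72 stood at 2.90 to 3.73 CPM in KO libraries and 3.52 to 3.83 CPM in WT libraries.

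Anxa6 (ENSMUSG00000018340, chr11:54979108-55033445, minus strand), an annexin with a doubled core whose mouse gene modifies the severity of muscular dystrophy, had 325.0, 321.8 and 370.1 CPM in KO total RNA, against 309.5, 306.1 and 212.2 CPM in WT total RNA. Like Trim72, it was highest in the KO libraries and far lower in WT library 3 alone. The log2 difference was 0.29 ± 0.19 (SE; adjusted p = 0.897, edgeR), and 0.15 without WT library 3. Per 1000 CPM of fibre markers, Anxa6 stood at 3.12 to 3.78 CPM in KO libraries and 3.44 to 4.55 CPM in WT libraries.

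Anxa4 (ENSMUSG00000029994, chr6:86736840-86793584, minus strand), an annexin known mainly from epithelial membranes, had 16.4, 13.6 and 18.1 CPM in KO total RNA, against 19.7, 24.2 and 22.4 CPM in WT total RNA. It was the 1 member whose KO libraries all lay below the WT libraries. The log2 difference was -0.47 ± 0.17 (SE), with an unadjusted p of 0.0219 and an adjusted p of 0.897 in edgeR's quasi-likelihood test. Of all genes tested, 4.32% had an unadjusted p under 0.05.

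The remaining annexins overlapped between genotypes. Anxa1, a glucocorticoid-induced annexin with anti-inflammatory activity, had 29.8, 23.8 and 37.3 CPM in KO total RNA, against 49.9, 29.4 and 32.7 CPM in WT total RNA (log2 -0.31 ± 0.24). Anxa2, which forms a complex with the S100A10 protein, had 57.0, 64.4 and 101.3 CPM in KO total RNA, against 88.3, 84.0 and 53.2 CPM in WT total RNA. Its log2 difference was -0.02 ± 0.26, with the highest library in KO and the lowest in WT. Anxa5, the phosphatidylserine binder used as a stain for dying cells, had 46.9, 52.7 and 62.3 CPM in KO total RNA, against 52.5, 55.9 and 34.3 CPM in WT total RNA (log2 0.18 ± 0.21). Anxa7, named synexin for its membrane fusion activity, was at 49.2 to 59.4 CPM in KO libraries and 52.4 to 59.4 CPM in WT libraries (log2 -0.05 ± 0.14). Adjusted p-values of these 4 genes were 0.897 to 0.992 (edgeR).

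Anxa3 (ENSMUSG00000029484, chr5:96793339-96845966, plus strand), for which a role in blood vessel growth has been reported, had 31.7, 36.9 and 33.8 CPM in KO total RNA, against 45.1, 29.2 and 69.5 CPM in WT total RNA. The KO libraries were close together inside the wider WT range, and the log2 difference was -0.50 ± 0.28, or -0.11 without WT library 3. Anxa11 (ENSMUSG00000021866, chr14:25842156-25886804, plus strand), an annexin whose long disordered end tethers RNA granules to lysosomes, had 75.7, 67.6 and 66.2 CPM in KO total RNA, against 76.5, 66.5 and 65.3 CPM in WT total RNA. The genotypes were nearly level, at a log2 difference of 0.00 ± 0.14.

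Across total RNA, then, 0 of 7 tested members passed at an adjusted p of 0.05, where 0% of 13169 genes did (edgeR). At an unadjusted p under 0.05 edgeR had 569 genes, 1 of them a tested member (Anxa4). DESeq2 called 5 genes and limma-voom 0, none of them a tested member. Of the 7 tested members, Trim72 and Anxa6 did not overlap with KO higher and Anxa4 with KO lower, where 5.06% of all genes did not overlap with KO higher and 4.56% with KO lower. The median log2 difference of the 7 was -0.02, and that of all genes was -0.01.

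**Figure D1:**
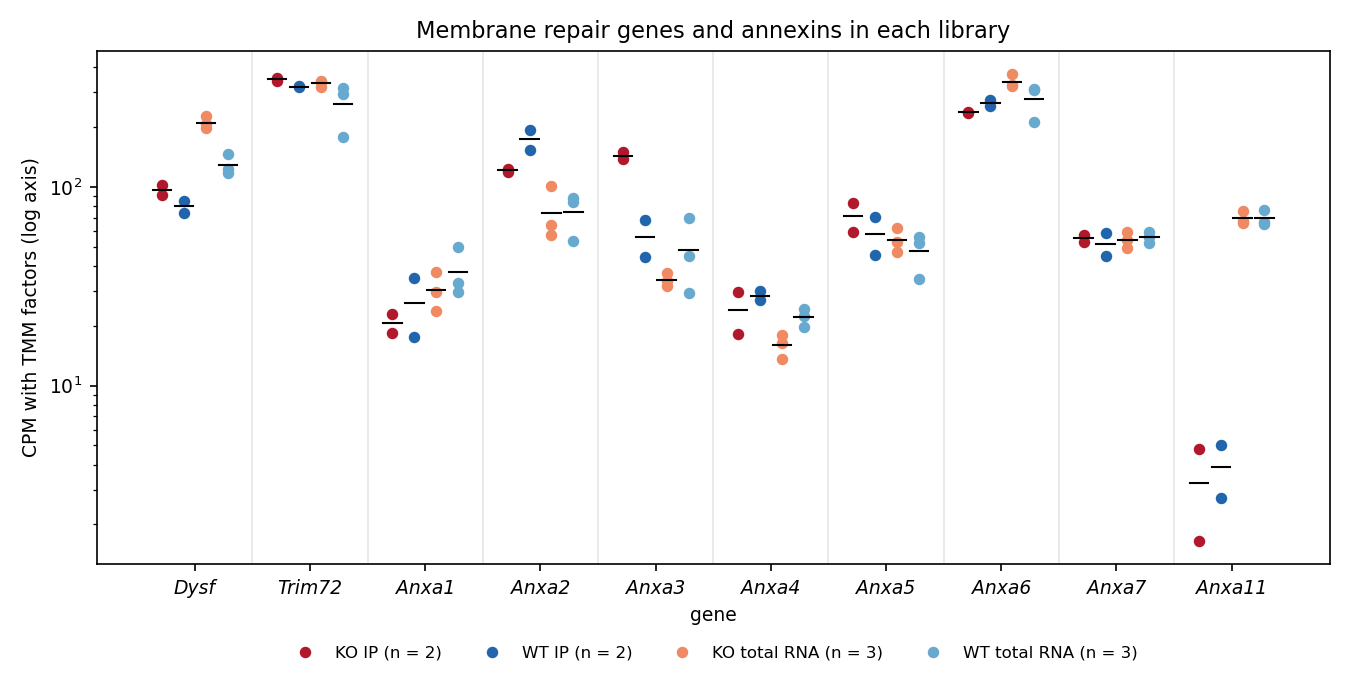
Level of each gene in each of the 10 libraries (CPM with TMM factors, log axis). Points are libraries, black bars are group means, and for each gene the groups run KO IP, WT IP, KO total RNA and WT total RNA. Dysf stands higher in KO than in WT total RNA, Anxa3 is at 138 and 149.7 CPM in KO IP, above all other groups, and Anxa11 lies between 1.66 and 5.04 CPM in the 4 IP libraries against 65.3 to 76.5 CPM in total RNA.

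Levels of different genes were compared as CPM per kilobase of the principal transcript. Trim72 led in KO total RNA with 156 ± 6.33 (SD, n = 3) CPM per kilobase, followed by Anxa6 with 136 ± 10.8 and Anxa2 with 51.3 ± 16.4, and the ranges of these 3 did not overlap. In WT total RNA the order was the same, at 123 ± 34.3, 111 ± 22.2 and 51.9 ± 13.2 CPM per kilobase, but Trim72 and Anxa6 overlapped. Below them, Dysf, Anxa5 and Anxa11 stood at 31.7, 31.2 and 29.2 CPM per kilobase in KO total RNA, with Dysf and Anxa5 overlapping and Anxa5 and Anxa11 overlapping. In WT total RNA, the genes from the third to the eighth place (Anxa2, Anxa3, Anxa11, Anxa5, Anxa1 and Anxa7) each overlapped with the next, and Dysf in the ninth did not overlap with Anxa4 below it. Dysf was thus the fourth of the 10 in KO total RNA and the ninth in WT total RNA, at 31.7 ± 2.28 and 19.4 ± 2.32 CPM per kilobase. Anxa4 was the lowest in total RNA, at 7.91 ± 1.11 in KO and 10.9 ± 1.11 in WT.

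Seen as a share of the summed CPM per kilobase of the 8 annexins, Anxa6 made up 43.4% ± 1.43 (SD, n = 3) in KO total RNA and 36.5% ± 3.60 (SD, n = 3) in WT total RNA. In the IP the make-up was different. Anxa3 took 25.4% ± 2.20 (SD, n = 2) of the annexin sum in KO IP and 10.1% ± 1.32 (SD, n = 2) in WT IP, while Anxa2 took 23.6% ± 0.013 in KO IP and 34.9% ± 0.229 in WT IP. Anxa11 made up 0.383% of the annexin sum in KO IP, against 9.39% in KO total RNA. In WT IP it made up 0.460%, against 9.64% in WT total RNA. These shares are not independent of each other, since a larger share of 1 annexin lowers those of the others.

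The antibody IP of KO muscle, compared with that of WT muscle, addresses which transcripts depend on IMP2 to be recovered. Anxa3 had 149.7 and 137.8 CPM in KO IP, against 68.1 and 44.4 CPM in WT IP. Both KO IP libraries lay above both WT IP libraries, so that Anxa3 was recovered more, not less, from muscle labelled null. The log2 difference of KO IP over WT IP was 1.36 ± 0.26 (SE, n = 2 and 2), a fold of 2.57, and 140 of 10730 genes had a larger one. In pooled raw counts relative to library size, Anxa3 in KO IP was 5.57 times its level in KO total RNA (821 and 926 counts, exact 95% interval 5.06 to 6.12), while in WT IP it was 1.199 times its level in WT total RNA (276 and 2008 counts, 1.05 to 1.36). Intervals cover counting error only, not the spread between libraries, and are no test of a picked gene. KO IP library 2 gave 665 of the 821 counts.

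Of 14 lists of cell type markers, 6 had sums that separated the KO IP from the WT IP libraries. Among single genes, 20.5% did not overlap with KO IP higher and 20.6% with KO IP lower, so separation was common with 2 libraries a side. Summed over 6 fibroblast markers, the level was 6093 to 6507 CPM in KO IP, against 2902 to 3882 CPM in WT IP. Summed over 5 endothelial markers it was 565 to 912 CPM in KO IP, against 477 to 483 CPM in WT IP. Schwann cell markers (4 genes) stood at 442 to 443 CPM in KO IP and 254 to 390 CPM in WT IP, erythroid markers (3 genes) at 398 to 702 CPM in KO IP and 131 to 271 CPM in WT IP, and tendon markers (5 genes) at 439 to 920 CPM in KO IP and 314 to 387 CPM in WT IP. No marker of these 5 lists was at 0 in either group. Within them, Scx of the tendon list was lower in KO IP without overlap (9.18 CPM, against 12.3 CPM in WT IP). Alas2 of the erythroid list averaged 0.311 CPM in KO IP, against 1.81 CPM in WT IP. Dpt and Pdgfra (fibroblast), Pmp22 (Schwann cell) and Thbs4 (tendon) overlapped, and the other markers of these 4 lists were higher in KO IP without overlap. The endothelial sum moved mainly with Kdr (279 CPM in KO IP and 118 CPM in WT IP), while Pecam1, Cdh5 and Vwf overlapped. Muscle fibre markers summed to 34319 to 44990 CPM in KO IP and 50978 to 59832 CPM in WT IP, with Acta1, Ckm and Des lower in KO IP, Neb higher without overlap (1447 CPM in KO IP and 1066 CPM in WT IP) and Ttn overlapping. The sums of the other 8 lists overlapped between KO IP and WT IP: fast fibre (49564 to 65288 CPM in KO IP and 63075 to 80841 CPM in WT IP), slow fibre, satellite cell, macrophage, neutrophil, smooth muscle and pericyte, adipocyte and islet. Their part in the Anxa3 difference was not tested.

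Anxa2 was the member with the clearest opposite course. It had 119.0 and 123.7 CPM in KO IP, against 194.1 and 153.8 CPM in WT IP, with both KO libraries below both WT libraries. The log2 difference was -0.51 ± 0.23 (SE), with an unadjusted p of 0.0411 and an adjusted p of 0.458 in edgeR's quasi-likelihood test over 10730 genes.

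Dysf had 101.7 and 91.2 CPM in KO IP, against 85.3 and 74.3 CPM in WT IP. The KO libraries lay above the WT libraries by less than in total RNA, at a log2 difference of 0.27 ± 0.24. Trim72 also lay above WT in both KO libraries, with 354.2 and 342.9 CPM in KO IP, against 322.6 and 317.2 CPM in WT IP (log2 0.13 ± 0.21). Anxa6 lay below WT in both, with 235 and 239 CPM in KO IP, against 275 and 255 CPM in WT IP (log2 -0.15 ± 0.21). The gaps of Trim72 and Anxa6 were smaller than their SE, and that of Dysf was about as large as its SE.

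The other annexins overlapped between the genotypes in the IP. Anxa1 had 23.0 and 18.4 CPM in KO IP, against 34.9 and 17.5 CPM in WT IP (log2 -0.36 ± 0.39). Anxa4 had 18.2 and 29.6 CPM in KO IP, against 29.8 and 26.9 CPM in WT IP (log2 -0.17 ± 0.33). For Anxa4, KO IP library 1 held only 19 counts. Anxa5 had 59.5 and 82.7 CPM in KO IP, against 71.0 and 45.5 CPM in WT IP (log2 0.32 ± 0.28). Anxa7 had 52.8 and 57.4 CPM in KO IP, against 58.4 and 45.2 CPM in WT IP (log2 0.11 ± 0.26). Anxa11 was near the limit of detection, with 5 and 8 counts in KO IP and 12 and 7 counts in WT IP, and its log2 difference of -0.52 ± 0.89 has an error larger than itself.

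Of the 7 tested members, 0 passed the edgeR test in the IP, where 0% of 10730 genes did. At an unadjusted p under 0.05 edgeR had 1128 genes (10.5%), 1 of them a tested member (Anxa2). DESeq2 called 57 genes and limma-voom 3, none of them a tested member. Leaving out 1 library gave 136 genes without WT IP library 1, 59 without WT IP library 2, 146 without KO IP library 1 and 13 without KO IP library 2 (edgeR). With 2 libraries a side the groups of many genes did not overlap. Trim72 did not overlap with KO higher, where 20.5% of genes did so, and Anxa2 and Anxa6 did not overlap with KO lower, where 20.6% did so. Adjusted p-values of the 7 tested members ran from 0.458 to 0.927.

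**Figure D2:**
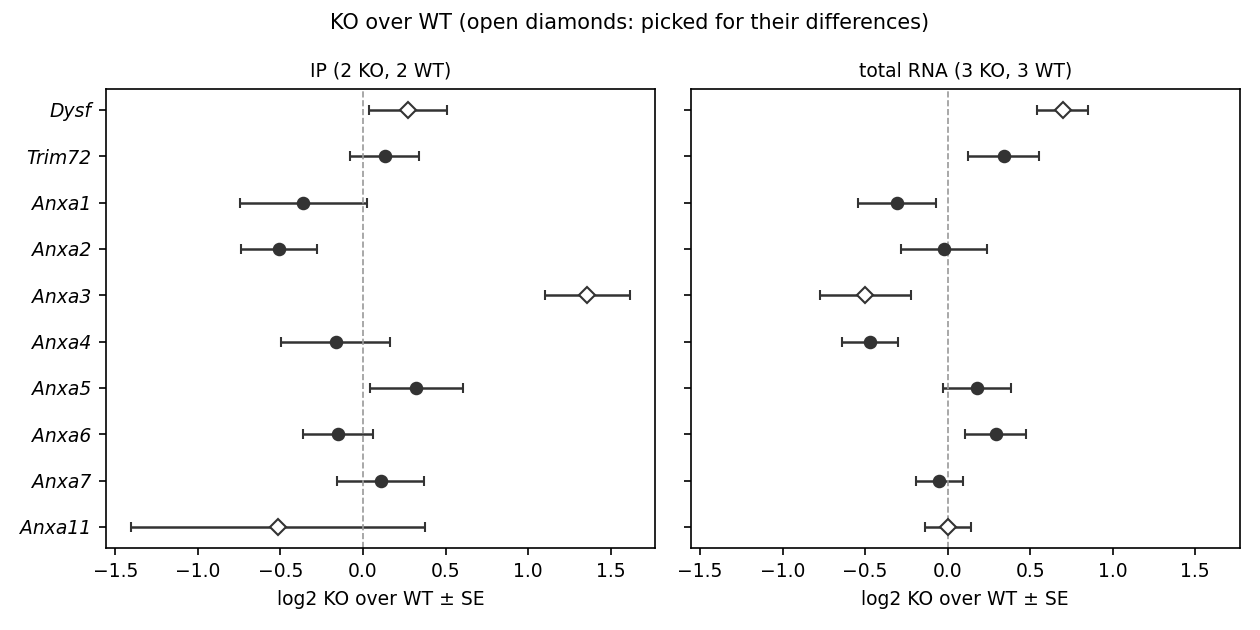
KO over WT as a log2 difference with its SE, in the IP (left) and in total RNA (right). Filled circles are the 7 tested members and open diamonds the 3 picked for their differences. Anxa3 stands at 1.36 in the IP and at -0.50 in total RNA, and Dysf at 0.27 in the IP and at 0.70 in total RNA.

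IP over total RNA gives what the pull-down enriched or lost within a genotype, and Anxa11 was almost absent from it. Anxa11 had 4.80 and 1.66 CPM in KO IP, against the 66.2 to 75.7 CPM of KO total RNA, and 5.04 and 2.72 CPM in WT IP, against the 65.3 to 76.5 CPM of WT total RNA. No IP library came near any total RNA library. The log2 difference of IP over total RNA was -4.88 ± 0.36 (SE) in KO and -4.17 ± 0.33 (SE) in WT, and 215 of 14399 genes had a lower one in KO and 317 in WT. In pooled raw counts relative to library size, the IP level of Anxa11 was 0.0435 of total RNA in KO (13 and 1879 counts, exact 95% interval 0.0231 to 0.0745) and 0.0577 in WT (19 and 2870 counts, 0.0347 to 0.0903). These ratios too use library size as the only scaling, and their intervals cover counting error only and are no test. The next lowest member, Dysf, stood at -1.14 in KO.

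Few genes well measured in total RNA were as scarce in the IP as Anxa11. Among 5519 genes with a mean of at least 20 CPM in total RNA of both genotypes, 6 had a log2 difference of -4 or lower in both genotypes (0.109%). They were Snw1, Dnmbp, Anxa11, Kcnj11, Myoz3 and Mafa, a list chosen after its values were seen. Snw1, which encodes a splicing and transcription cofactor, was the only gene of these below Anxa11 in both genotypes, at log2 differences of -4.94 in KO and -4.49 in WT. Kcnj11, the pore of the ATP-sensitive potassium channel of muscle, stood at -4.48 in KO and -4.10 in WT, and Myoz3, a Z-disc protein of fast fibres, at -4.11 in KO and -4.06 in WT. The median of the 5519 genes was -0.16 in KO and -0.15 in WT.

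Anxa2 was higher in the IP than in total RNA, and passed the test in WT. In WT IP its 194.1 and 153.8 CPM lay far above the 53.2 to 88.3 CPM of WT total RNA, a log2 difference of 1.21 ± 0.27 (SE) with an adjusted p of 0.0029 (edgeR). In KO IP its 119.0 and 123.7 CPM also lay above the 57.0 to 101.3 CPM of KO total RNA, and the log2 difference of 0.71 ± 0.27 (SE) had an adjusted p of 0.0536 (edgeR). The call in WT held in all 17 alternatives tried, with adjusted p-values up to 0.0411. In KO, Anxa2 passed with library size as the only scaling (log2 1.16, adjusted p = 0.00166), with no filter (0.0231), with limma-voom (0.0463) and with a robust fit (0.0475). It also passed without WT total RNA library 3 (adjusted p = 0.0246) and without KO total RNA library 3 (adjusted p = 0.0106), while without KO IP library 2 its adjusted p was 0.251 (edgeR).

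Anxa4 was the only tested member to pass in KO, where the 18.2 and 29.6 CPM of KO IP stood above the 13.6 to 18.1 CPM of KO total RNA by a log2 difference of 0.65 ± 0.24 (SE; adjusted p = 0.0495, edgeR). That call ended without KO IP library 2, where the log2 difference was 0.17 (adjusted p = 0.755), and without any of 6 other libraries, with adjusted p-values from 0.0567 to 0.154. The call in KO also ended under 3 alternatives that left out no library. In WT, Anxa4 had a log2 difference of 0.36 ± 0.24 (adjusted p = 0.255, edgeR), with both WT IP libraries above all WT total RNA libraries.

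Dysf was lower in the IP than in total RNA in both genotypes, with a log2 difference of -1.14 ± 0.20 (SE) in KO and -0.70 ± 0.19 (SE) in WT and no overlap in either. Anxa3 stood 2.07 ± 0.29 (SE) higher in KO IP than in KO total RNA without overlap, whereas in WT the log2 difference was 0.23 ± 0.30 (SE) and the libraries overlapped. Trim72, the partner of dysferlin in vesicle patching, had log2 differences of 0.06 ± 0.23 in KO and 0.29 ± 0.23 in WT.

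The remaining annexins did not pass in the edgeR fit with TMM factors. The log2 difference of IP over total RNA of Anxa1 was -0.59 ± 0.34 in KO and -0.52 ± 0.32 in WT, and that of Anxa5 was 0.42 ± 0.26 in KO and 0.29 ± 0.26 in WT. For Anxa6 it was -0.51 ± 0.21 in KO and -0.06 ± 0.21 in WT, and for Anxa7 0.03 ± 0.19 in KO and -0.11 ± 0.19 in WT. For Anxa6 in KO the adjusted p was 0.0714, and it was 0.0270 without WT total RNA library 3 and 0.0399 without WT IP library 2 (edgeR). DESeq2 gave Anxa6 in KO an adjusted p of 0.0254. With library size as the only scaling, Anxa5 passed in KO (log2 0.86, adjusted p = 0.0143), as did Trim72 (log2 0.49, adjusted p = 0.0495), where that scaling raised the median of all genes.

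In KO, 1 of 7 tested members passed (Anxa4, higher). Of all 14399 genes 36.5% passed in KO, made up of 17.7% higher and 18.8% lower. In WT, 1 of 7 passed (Anxa2, higher), where 37.0% of genes passed, 17.6% higher and 19.4% lower. Without overlap in KO stood Anxa2 and Anxa4 with IP higher, where 29.9% of genes did, and Anxa1 and Anxa6 with IP lower, where 31.3% did. In WT it was Trim72, Anxa2 and Anxa4 with IP higher, where 27.4% of genes did, and none with IP lower, where 32.4% did. With library size as the only scaling, the median log2 difference of all genes was 0.47 in KO and 0.01 in WT, where TMM factors gave 0.03 in KO and -0.05 in WT. Without KO IP library 2, 2148 genes passed in KO, against 5251 with it. Library size alone split the calls in KO into 4267 higher and 1439 lower, against 2551 higher and 2700 lower with TMM factors.

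**Figure D3:**
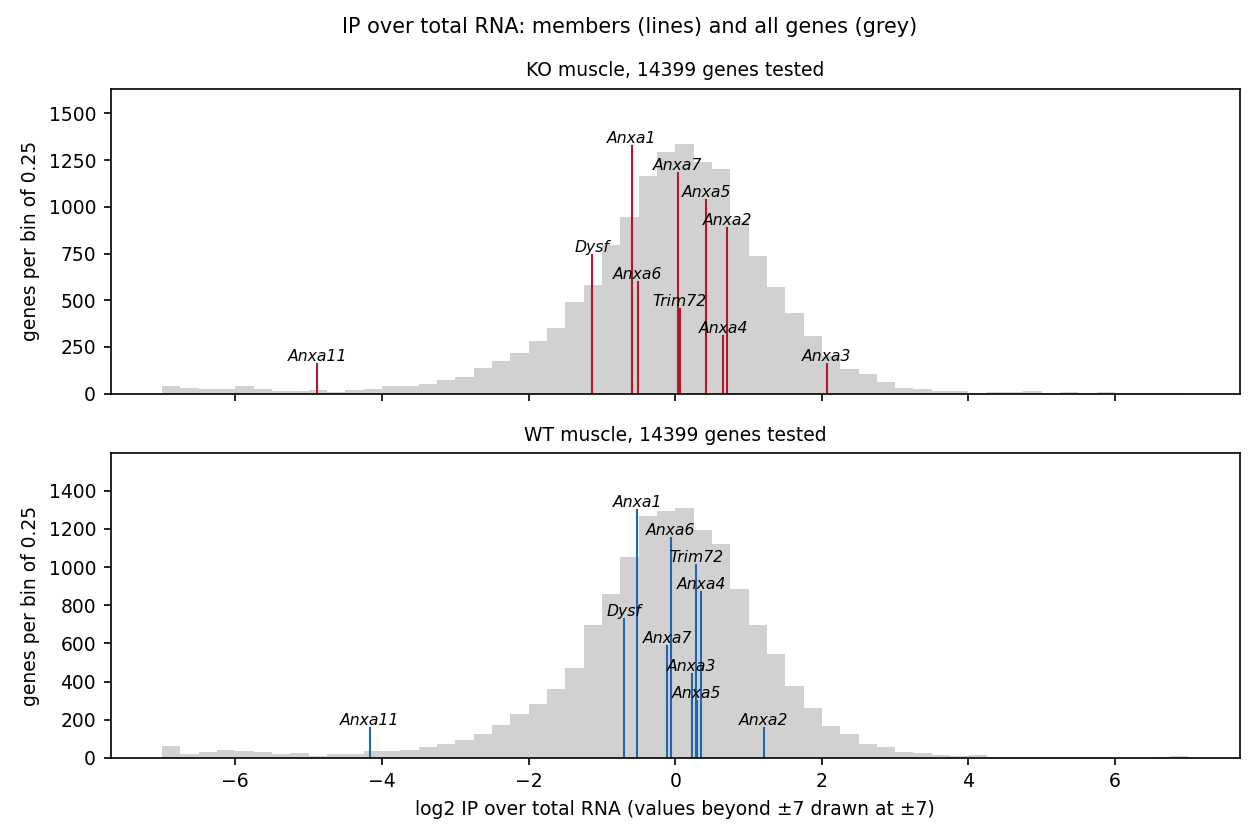
IP over total RNA as a log2 difference, in KO muscle (upper panel) and WT muscle (lower panel). Grey bars count all 14399 genes tested in bins of 0.25, and lines mark the 10 genes (the height of a line has no meaning). Anxa11 stands in the far left tail of both panels, at -4.88 in KO and -4.17 in WT, and Anxa3 is on the right at 2.07 in KO alone.

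Whether IP over total RNA differed between KO and WT was tested as an interaction over all 10 libraries. Anxa3 had an interaction of 1.84 ± 0.42 (SE) on the log2 scale, and 671 of 14399 genes had a larger one. Dysf stood at -0.44 ± 0.27 and Anxa11 at -0.72 ± 0.54. Of the 7 tested members 0 passed, with interactions from -0.50 (Anxa2) to 0.30 (Anxa4) and adjusted p-values of 0.549 to 0.967 (edgeR). Of all 14399 genes, 1 passed (0.00694%), which was Prps1l3, at -5.28 ± 0.71, and 1703 had an unadjusted p under 0.05, none of them a tested member. DESeq2 called 17 genes and limma-voom 0, none of them a tested member. IP over total RNA in KO and in WT compares separate libraries, but the same fit over all 10 libraries gave both their filter, scaling and spread. The interaction uses the same libraries as the comparisons above.

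IMP2 and its relatives are known to read the letters UGGAC where the adenosine is methylated. The sense strand of the principal transcripts (GENCODE M21, GRCm38) was searched for TGGAC, the DNA spelling, and 89.5% of 21866 transcripts held at least 1 match. Anxa3 held 5 matches in 1595 bases, a number that 11.1% of 1690 transcripts within 10% of its length reached. Anxa11 held 1 match in 2394 bases, which 95.8% of 2314 transcripts of like length reached. Anxa2 held 2 (62.3% of like length), Trim72 2 (77.7%) and Dysf 13 (13.7% of 946). Anxa4, Anxa6 and Anxa7 held 1 each, and Anxa1 and Anxa5 none. The windows of 21 bases around matches that do not span a splice junction are shown for Anxa3, Anxa2 and Anxa11, the annexins that stood furthest from their total RNA level in KO IP, with the match in capitals and 5′ to 3′ on the plus strand, on which all 3 genes lie.
Anxa3, chr5:96797422-96797442, 5′ UTR, exon 2: gagaaaggTGGACtgtcatgg
Anxa3, chr5:96830449-96830469, coding, exon 10: gaattatcTGGACattttgaa
Anxa3, chr5:96838349-96838369, coding, exon 12: tgatctttTGGACatcagaca
Anxa3, chr5:96845588-96845608, 3′ UTR, exon 13: cctgatggTGGACcgcctcaa
Anxa2, chr9:69489699-69489719, coding, exon 12: cagtgaagTGGACatgctgaa
Anxa2, chr9:69491579-69491599, 3′ UTR, exon 13: tccactaaTGGACccctgagc
Anxa11, chr14:25877368-25877388, coding, exon 10: cacaaatgTGGACatgtccct
A match is a description of the letters and not a binding site, and methylation was not measured.

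Recovery in the IP declined with transcript length over the 13109 of 14399 tested genes that had a protein-coding principal transcript. In KO the median log2 difference of IP over total RNA was 0.37 for transcripts under 1 kilobase and -0.45 for those over 6 kilobases, and in WT it was 0.71 and -0.57. Taken as the difference from the median of its own length class, Dysf, with a principal transcript of 6660 bases, stood at -0.69 in KO and -0.13 in WT. On that scale Anxa11, in the class of 2 to 3 kilobases, stood at -5.09 in KO and -4.26 in WT, with 18 of 2999 genes lower in KO and 41 in WT. Anxa3, in the class of 1 to 2 kilobases, stood at 1.77 in KO and -0.09 in WT, and Anxa2, of the same class, at 0.41 in KO and 0.90 in WT. The other members lay between -0.89 (Anxa1) and 0.45 (Anxa4), both in KO.

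**Figure D4:**
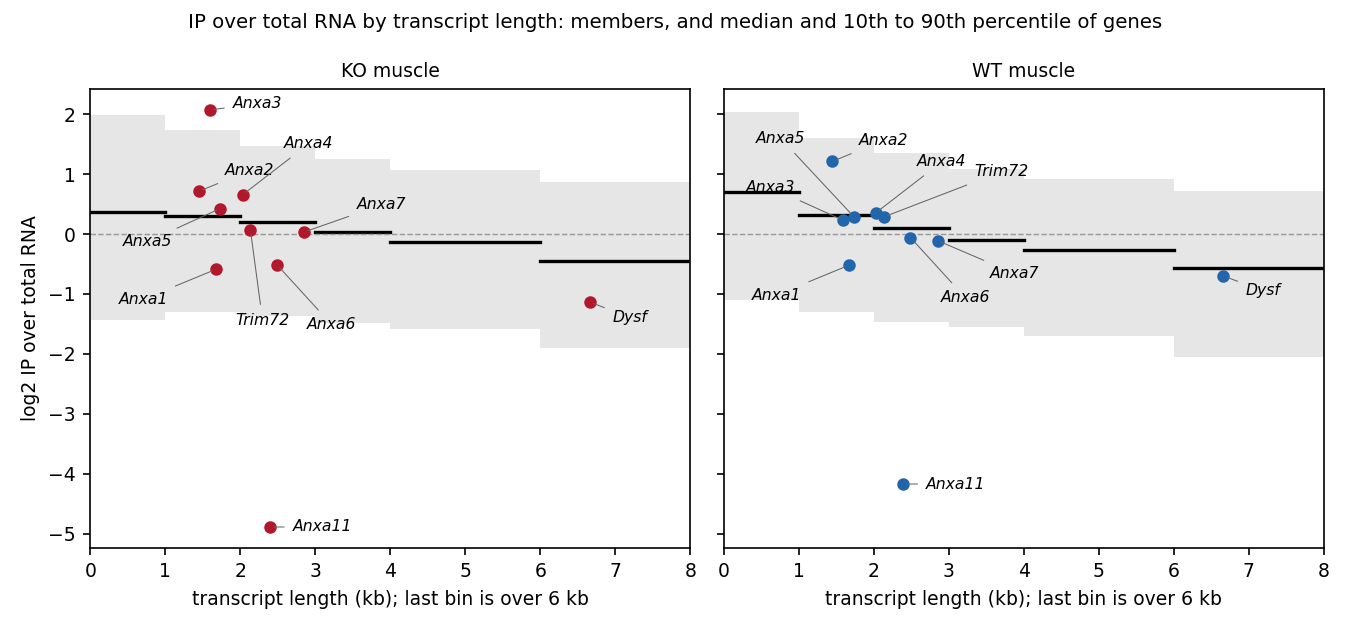
Log2 difference of IP over total RNA against the length of the principal transcript, in KO muscle (left) and WT muscle (right). Black lines are medians of the genes in a length class (13109 genes with a length), grey bands run from the 10th to the 90th percentile, and points are the 10 genes. Anxa11 lies far under the band in both panels, Anxa3 lies above it in KO alone, and Dysf lies inside it.

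The rest of the repair machinery was followed through 7 lists, named from what is known of the pathway. They were chosen with earlier results of these data known and held 43 genes. In total RNA 38 of them were tested and 0 passed (0% of all genes), with a median log2 difference of KO over WT of 0.09 against -0.01 for all genes. The lists with the highest medians were caveolae and membrane curvature, at 0.18 over 8 genes, and the ESCRT complex with its recruiters, at 0.09 over 8 genes, and no adjusted p was below 0.897 (edgeR). With library size as the only scaling, the median of all genes was -0.23, a shift larger than either. Ehd2, an ATPase of the caveolar neck, had the smallest unadjusted p of the first list (log2 0.52 ± 0.21, adjusted p = 0.897, edgeR), and averaged 195 CPM in KO and 136 CPM in WT. Myh9, a non-muscle myosin, stood at 0.40 ± 0.18 and Ahnak, a giant scaffold that binds dysferlin, at -0.28 ± 0.15 on the log2 scale. Chmp4b and Vps4a of the ESCRT list, Capn1 and Capns1 of the calpains, S100a10 and S100a11, Myof, Fer1l5 and Anxa8 had log2 differences of 0.16, 0.15, 0.23, 0.37, -0.22, 0.19, -0.37, 0.06 and -0.63.

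The same lists were compared between IP and total RNA. In KO, 13 of 40 tested genes passed as higher in the IP and 7 as lower, and in WT 17 passed as higher and 6 as lower, beside the backgrounds of 17.7% and 18.8% in KO and 17.6% and 19.4% in WT. Their median log2 difference was 0.14 in KO and 0.41 in WT, against 0.03 and -0.05 for all genes. Of the genes that passed, 6 of 20 in KO and 10 of 23 in WT did so in all 17 alternatives, and without KO IP library 2 the counts in KO were 5 higher and 4 lower.

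Of the lists, transcripts of the S100 proteins that pair with annexins had the highest median log2 difference, 1.89 in KO and 2.29 in WT. The genes of the lists were not set against their length classes, and the part of transcript length was not tested. S100a10, the partner of annexin A2, averaged 254 CPM in KO IP and 38.9 CPM in KO total RNA, and 213 CPM in WT IP and 45.0 CPM in WT total RNA. Its log2 difference was 2.71 ± 0.31 in KO and 2.24 ± 0.30 in WT. S100a11, which binds annexins A1 and A2, stood at 2.32 ± 0.35 in KO and 2.48 ± 0.34 in WT, and both genes passed in all alternatives. S100a4 passed in both genotypes (in KO in 11 of 17 alternatives), at 1.46 ± 0.50 in KO and 2.33 ± 0.47 in WT, and S100a6 passed in WT alone, at 1.15 ± 0.32, with 0.15 ± 0.33 in KO and an interaction whose adjusted p was 0.422 (edgeR). Without WT IP library 1 neither S100a4 nor S100a6 passed in WT, at adjusted p-values of 0.0757 and 0.144.

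Among the calpains, calcium-activated proteases that cut repair proteins, with their subunit and inhibitor, 2 of 5 genes passed as higher and 1 as lower in KO, and 2 as higher and 2 as lower in WT. Capns1, the small regulatory subunit, averaged 795 CPM in KO IP, against 311 CPM in KO total RNA (log2 1.35 ± 0.27), and 813 CPM in WT IP, against 240.4 CPM in WT total RNA (log2 1.76 ± 0.27). Cast, which encodes the inhibitor calpastatin, averaged 21.6 CPM in KO IP, against 85.0 CPM in KO total RNA (log2 -2.08 ± 0.26), and 18.6 CPM in WT IP, against 91.7 CPM in WT total RNA (log2 -2.29 ± 0.26). Both passed in all 17 alternatives in either genotype. Capn2 passed as higher in KO (0.67 ± 0.19), Capn1 as higher in WT (0.55 ± 0.18) and Capn3, the muscle calpain, as lower in WT (-0.60 ± 0.22), the last in 8 of 17 alternatives.

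Among genes of caveolae and membrane curvature, 4 of 8 passed as higher and 1 as lower in KO, and 5 of 8 as higher in WT. Cavin1, the main coat protein of caveolae, stood at a log2 difference of 2.08 ± 0.33 in KO and 1.74 ± 0.33 in WT, and Cavin2 at 1.89 ± 0.21 in KO and 1.41 ± 0.21 in WT. Ehd1 and Ehd2 also passed in both genotypes, at 1.15 ± 0.24 and 0.80 ± 0.24 in KO and 1.55 ± 0.24 and 0.92 ± 0.24 in WT. Cavin4, the muscle cavin, passed as lower in KO (-0.84 ± 0.20). Cav3, the muscle caveolin, which binds dysferlin, averaged 96.8 CPM in KO IP, against 97.2 CPM in KO total RNA, and 191 CPM in WT IP, against 76.4 CPM in WT total RNA. It passed in WT alone, at 1.32 ± 0.25 in all 17 alternatives, with -0.02 ± 0.26 in KO. The difference between genotypes, an interaction of -1.34 ± 0.36, had an adjusted p of 0.342 (edgeR).

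Of 9 dysferlin partners and fusion proteins, 2 passed as higher and 2 as lower in KO, and 5 as higher and 1 as lower in WT. Ahnak stood at 0.79 ± 0.19 in KO and 0.57 ± 0.19 in WT, and Vamp3, a vesicle SNARE, at 0.74 ± 0.20 in KO and 0.98 ± 0.20 in WT. Myh9 was lower in the IP in both, at -0.97 ± 0.22 in KO and -0.82 ± 0.22 in WT, and Parvb, a focal adhesion protein that binds dysferlin, passed as lower in KO (-0.66 ± 0.20). Smpd1, the acid sphingomyelinase, passed in WT (1.03 ± 0.22), as did Ano5, a lipid scramblase whose loss also causes a muscular dystrophy (0.67 ± 0.19), and Vamp2 (0.54 ± 0.20, in 7 of 17 alternatives).

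In the ESCRT list 1 of 8 genes passed in each direction in either genotype. Pdcd6ip, which encodes the adaptor ALIX, was lower in the IP, at -1.01 ± 0.24 in KO and -0.82 ± 0.23 in WT. Vps4b passed as higher in KO (0.61 ± 0.21, in 8 of 17 alternatives) and Vps4a in WT (0.58 ± 0.21, in 7 of 17 alternatives). Among other ferlins, Fer1l5 stood at -2.61 ± 0.77 in KO and -3.17 ± 0.82 in WT and Fer1l6 at -3.01 ± 0.88 in KO and -2.85 ± 0.85 in WT, and Otof passed as higher in KO (3.42 ± 1.198). These 3 averaged under 6 CPM in every group, and their fitted differences depend on few counts. Myof did not pass, nor did the other annexins tested.

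**Figure D5:**
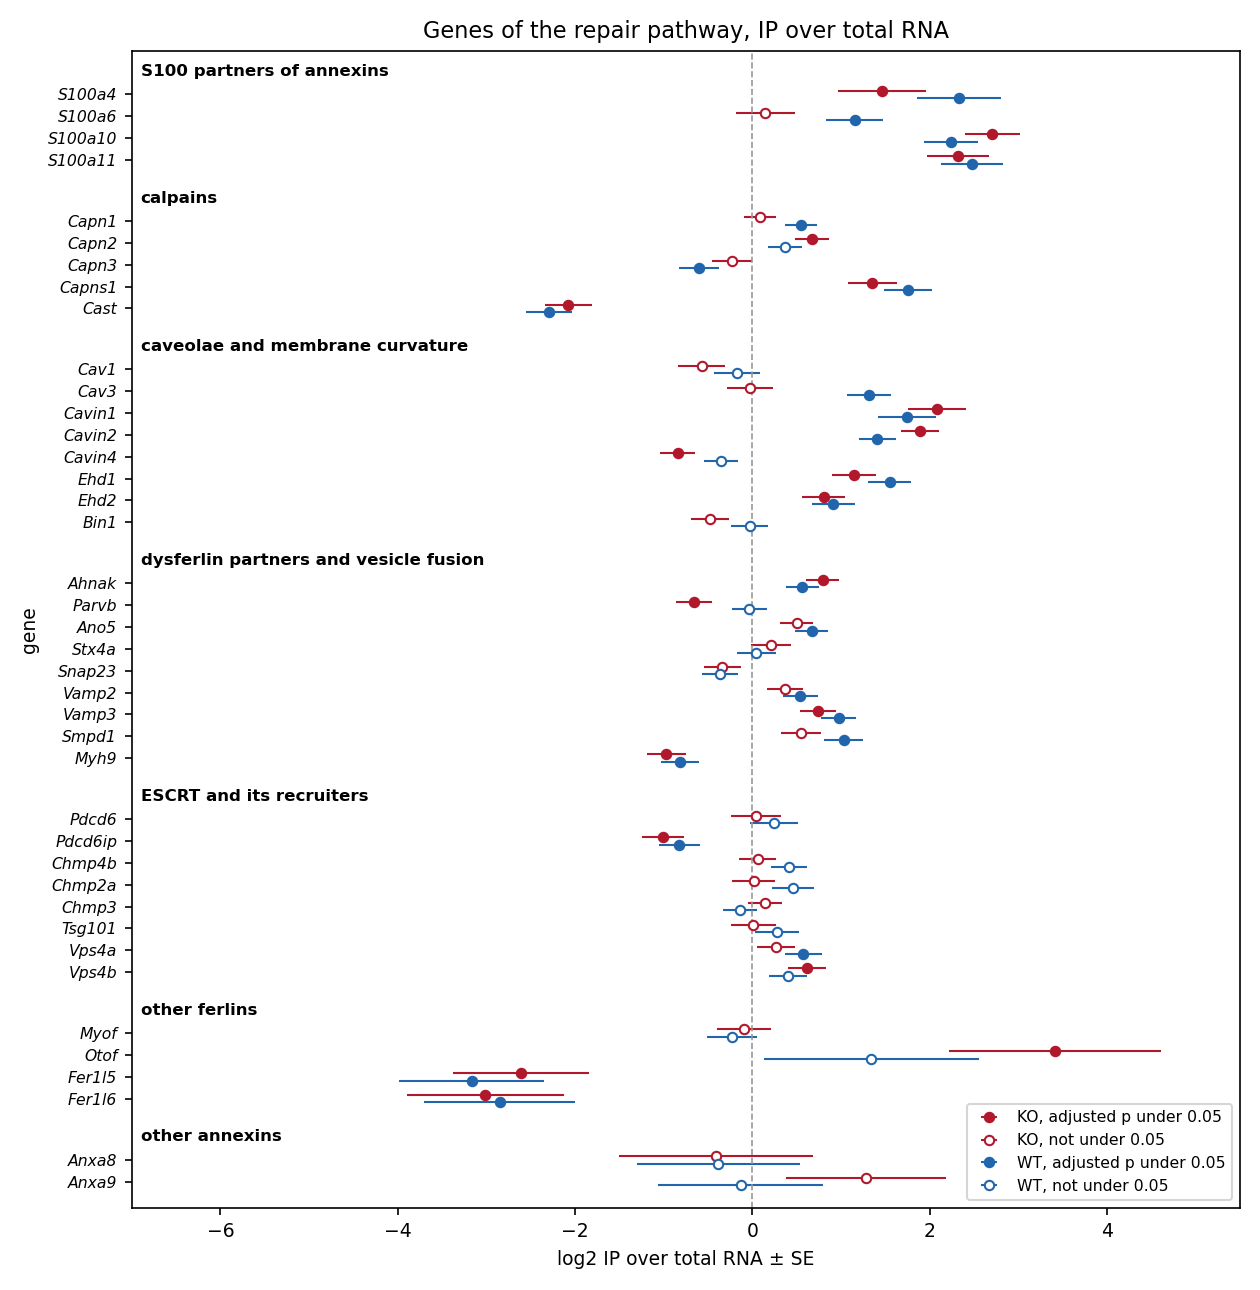
IP over total RNA as a log2 difference with its SE for the tested genes of 7 lists of the repair pathway, KO in red and WT in blue, with filled points for an adjusted p under 0.05 (edgeR). S100a10, S100a11, Cavin1 and Cavin2 stand to the right and Cast to the left in both genotypes, and Cav3 is at 1.32 in WT and at -0.02 in KO.

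Genes with a pattern like that of Dysf were ranked by the root mean square difference of centred log2 CPM over the 10 libraries, among 10015 genes with a mean of at least 5 CPM. The nearest were Mstn (0.180), Mdga1 (0.191), Bag6 (0.210), Speg (0.216) and Dlg4 (0.218), where the median of all genes was 0.672. These genes were chosen for nearness to Dysf, itself a picked gene, so their levels are a description and no test. Mstn, which encodes the muscle growth inhibitor myostatin, averaged 37.2 CPM in KO total RNA, against 26.1 CPM in WT total RNA, and 15.9 CPM in KO IP, against 13.9 CPM in WT IP. Speg, a striated muscle kinase, averaged 747 CPM in KO total RNA, against 615 CPM in WT total RNA, and 383 CPM in KO IP, against 359.5 CPM in WT IP. Among the members, Anxa6 was nearest to Dysf (0.40) and Anxa11 farthest (1.73).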

How the data were processed

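Raw read counts per gene of 10 libraries were used as the authors deposited them (unit: counts). Per the submitters' processing notes, reads were aligned with STAR and counted with HTSeq on mm10. For their versions and the strand setting no source was at hand, and reads of overlapping antisense genes cannot be told apart. Lines that name no gene were left out of library sizes: reads at several places came to 26.1 to 43.3% of the reads in a library, no-gene reads to 8.54 to 11.2% and ambiguous reads to 3.30 to 6.03%. Groups came from the labels. The members and lists were chosen with earlier results of these data known.

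Genes were tested with edgeR 4.0.16 (R 4.3.3), by the two-sided quasi-likelihood test with TMM factors, filterByExpr by group and Benjamini-Hochberg adjustment at 0.05. KO over WT was fitted within 6 total RNA or 4 IP libraries, and IP over total RNA within all 10. SE is the absolute log2 difference over the root of F. Alternatives used DESeq2 1.42.0, limma 3.58.1 (voom), other scalings and filters, a robust fit, a replicate block and leaving out libraries. The edgeR steps were tested on simulated data. A count of 3 corresponds to 0.203 to 0.310 CPM in total RNA and 0.743 to 3.27 CPM in IP libraries, so low genes are less precise in the IP. Named are the members, Igf2bp2, the genes of a pathway list that passed or else up to 2 with the smallest p in total RNA, and the 5 genes most like Dysf. The per-fibre values, the genes scarce in the IP and the ranges of list calls were chosen after seeing the data. Transcripts are the principal ones of GENCODE M21 on GRCm38.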

Additional observations from a re-analysis of the deposited data

How the results depend on the processing

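The count of genes called in total RNA was 5 with DESeq2 and 64 with no filter on low counts, against 0. In the IP it was 1 with library size alone, 57 with DESeq2, 3 with limma-voom, 103 with no filter and 24 with a robust fit, against 0, and 13 to 146 leaving out 1 library. The interaction had 0 with library size alone and with limma-voom, 17 with DESeq2 and 263 with no filter, against 1, and 0 to 1 leaving out 1 library. KO IP over total RNA had 2148 to 5706 leaving out 1 library, against 5251, the lowest without KO IP library 2. The causes were not tested.

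Some small log2 differences turned sign. In total RNA, Anxa2 was 0.23 and Anxa7 0.0051 without the libraries with islet or brown fat transcripts, and Anxa5 was -0.021 with library size alone. For IP over total RNA, Anxa6 in WT was 0.026 with library size alone, and Anxa7 in KO was -0.013 with DESeq2 size factors, -0.0099 with DESeq2 and -0.00083 with no filter. The interactions of Trim72 and Anxa1 were 0.11 and 0.30 with library size alone. Leaving out 1 library, Anxa2 ran from -0.30 to 0.14 and Anxa7 from -0.11 to 0.015 in total RNA. In the IP, Anxa1 ran from -0.79 to 0.22, Anxa4 from -0.62 to 0.062 and Anxa7 from -0.075 to 0.31. For IP over total RNA, Anxa5 ran from -0.080 to 0.50 and Anxa6 from -0.21 to 0.033 in WT, and Trim72 from -0.059 to 0.085 and Anxa7 from -0.088 to 0.11 in KO. The interaction of Anxa1 ran from -0.53 to 0.51, of Anxa4 from -0.17 to 0.54, of Anxa5 from -0.19 to 0.49 and of Anxa7 from -0.072 to 0.35.

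The labels do not say that a replicate number marks a shared animal. Same-numbered KO and WT total RNA libraries correlated at 0.091, -0.11 and -0.30 in their deviations from group means, and KO and WT IP libraries at -0.047. Same-numbered IP and total RNA libraries correlated at 0.16 in KO and 0.13 in WT, which is 1 independent value per genotype, so pairing of IP with total RNA was not settled. With a replicate block the count called was 28 in the IP and 147 for the interaction, and the interactions of Trim72 and Anxa1 were 0.013 and 0.26. For IP over total RNA the block gave Anxa2 in KO 1.00 (adjusted p = 1.16e-05) and Anxa1 in WT -0.62 (adjusted p = 0.0455), both now called.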
